A study of Homo sapiens with 12 samples.

Results

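The genes described here are 10 short, inducible genes: the immediate early response genes IER2, IER3, IER5 and IER5L, the zinc finger genes ZFP36, ZFP36L1 and ZFP36L2, the antiproliferative genes BTG1 and BTG2, and MCL1. Membership was set by gene symbol, and the symbols were picked with earlier results of these data known, so the 10 are not a blind sample of genes. All 10 were found among the 60583 genes of the count tables, and all 10 passed the filter on low counts in each comparison. Their nascent transcripts were measured by TT-seq, in which newly made RNA that carries 4-thiouridine is biotinylated, captured and sequenced. The cells came from the established human osteosarcoma line U2OS, either as such or with the restriction nuclease AsiSI fused to a hormone receptor domain (AsiSI-ER, in U2OS-AsiSI cells). Both kinds of cell received siCtrl, a control siRNA, or siINTS11, which targets INTS11, and were taken 48 hours after transfection, which gave 4 groups of 3 libraries.

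U2OS-AsiSI cells of both siRNA groups had been given 4-hydroxytamoxifen (OHT) for 1 hour, an agent that moves the nuclease into the nucleus, and the labels of U2OS name no such treatment. A comparison between the lines therefore joins the line, the nuclease and OHT, and these cannot be told apart. INTS11 is the subunit with which the Integrator complex cleaves nascent RNA, and Integrator ends transcription soon after it starts at many genes. The labels do not say whether the libraries of a group came from separate cultures, so p-values measure the spread between these libraries, which may be technical.

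Immediate early genes are transcribed within minutes of a growth factor, stress or cytokine signal, mostly through MAP kinases and transcription factors that are already present, and their RNAs and proteins are short-lived. They are short and carry few introns. ZFP36 proteins bind AU-rich elements in mRNA and bring in the CCR4-NOT deadenylase, and BTG proteins bind the same deadenylase, so both families act in mRNA decay. MCL1 is a short-lived member of the BCL2 family that protects cells from apoptosis.

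Each gene was counted over its whole span, introns included. In hg38 coordinates as the tables give them, IER2 lies at chr19:13150411-13154911 (plus strand), IER3 at chr6:30743199-30744548 (minus), IER5 at chr1:181088700-181092900 (plus) and IER5L at chr9:129175552-129178261 (minus). ZFP36 lies at chr19:39406847-39409412 (plus), ZFP36L1 at chr14:68787660-68796253 (minus) and ZFP36L2 at chr2:43222402-43226606 (minus). BTG1 is at chr12:92140278-92145846 (minus), BTG2 at chr1:203305491-203309602 (plus) and MCL1 at chr1:150574551-150579738 (minus). Spans run from 1350 bp in IER3 to 8594 bp in ZFP36L1. The principal transcripts of IER5 and IER5L have 1 exon, those of ZFP36L1 and MCL1 have 3, and the other 6 have 2. BTG1 shares 2637 bases with LINC01619 on its own strand, a non-coding gene with a mean count of 1776, so reads may be lost or shared there and BTG1 values are uncertain. MCL1 shares 2 bases with ADAMTSL4-AS1 on its strand. IER2, IER3, IER5L, ZFP36L2 and BTG1 overlap genes on the opposite strand, whose mean counts ran from 0 to 93.2, and the strand setting of the counting is not given in the sources used here. IER5L, with a span of 2710 bp, shares 1769 bases with AL158151.3 and 1491 with AL158151.1. Their mean counts were 15.5 and 74.6 beside 214 for IER5L, so IER5L values are uncertain as well.

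Promoter sequence was available for 7 of the 10 genes in a RefSeq table on GRCh38.p14 that covers 250 bases before to 50 after each start. The 100 bases before the start are shown for the 3 genes with the largest changes after siINTS11 (IER5L, ZFP36 and BTG1) and for BTG2, the gene whose change differed between the lines. The RefSeq start lies 28 bases inside the counted span of BTG2 and 10 bases inside that of ZFP36L1. The last 28 bases of the BTG2 stretch therefore belong to its counted span. The stretches read 5′ to 3′ on the strand of the gene, with GC box (GGGCGG or its reverse complement CCGCCC) and TATA box (TATAAA) matches in capitals.
IER5L, chr9:129178262-129178361, minus strand: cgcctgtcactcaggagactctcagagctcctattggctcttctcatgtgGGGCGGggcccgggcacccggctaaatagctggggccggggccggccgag
ZFP36, chr19:39406747-39406846, plus strand: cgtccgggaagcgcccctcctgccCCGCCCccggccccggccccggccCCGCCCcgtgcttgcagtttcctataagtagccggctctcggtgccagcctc
BTG1, chr12:92145847-92145946, minus strand: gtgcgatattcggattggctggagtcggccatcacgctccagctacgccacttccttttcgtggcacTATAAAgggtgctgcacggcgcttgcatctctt
BTG2, chr1:203305419-203305518, plus strand: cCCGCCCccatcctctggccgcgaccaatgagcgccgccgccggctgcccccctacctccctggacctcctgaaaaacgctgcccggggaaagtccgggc

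All 5 motifs were searched on both strands over the whole 300-base window. The TATA box matched in 1 of the 7 genes, BTG1, where it begins 33 bases before the start, and in 11.5% of all 35116 promoters. Only the exact letters TATAAA were counted, so variants such as the tataag in the ZFP36 stretch were not. GC boxes numbered 4 in IER2, 3 in ZFP36, 3 in BTG2, 2 in IER5L and 1 in BTG1, with none in IER5 or ZFP36L1, and 45% of all promoters held at least 1. The CArG box of SRF (1.29% of all promoters), the cAMP response element TGACGTCA (1.85%) and the AP-1 site TGANTCA (7.71%) matched in 0 of the 7 windows. The window is short, and factors were not measured here.

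Library totals ran from 20704611 to 38065726 counts. They were lowest in U2OS-AsiSI siINTS11, with a mean of 24486291 counts against 30885042 in U2OS-AsiSI siCtrl, 33062796 in U2OS siCtrl and 30628221 in U2OS siINTS11. Levels below are CPM, counts set in proportion to a library size that is scaled by the trimmed mean of M-values (TMM), changes are log2 fold changes with their standard error (SE), and a gene is called higher or lower at an edgeR adjusted p under 0.05. INTS11 itself changed by -0.42 (SE 0.09, edgeR adjusted p 6.08e-05) in U2OS and by -0.13 (SE 0.08, edgeR adjusted p 0.172) in U2OS-AsiSI. The difference between the lines, 0.25 (SE 0.12, edgeR adjusted p 0.235), did not pass. Its siINTS11 libraries lay below its siCtrl libraries in each line, as in 31.2% of all genes in U2OS and 34.7% in U2OS-AsiSI. INTS11 mRNA and protein were not measured here, so in both lines the name siINTS11 stands for the label. Of the mesenchymal markers, RUNX2 (149 to 446 CPM), COL1A1, SPARC and VIM were abundant in all 12 libraries, COL1A2 and SP7 stayed under 0.5 CPM and BGLAP was at 0. The summed level of the 8 mesenchymal markers was 896 to 944 and 771 to 783 CPM in the siCtrl groups of U2OS and U2OS-AsiSI, against 650 to 696 and 582 to 640 under siINTS11. The 3 endothelial markers PECAM1, CDH5 and VWF summed to 5.9 to 7.44 CPM under siCtrl and 13.2 to 15.1 under siINTS11. Blood markers summed to at most 0.282 CPM, with HBB at 0, and epithelial markers to 10.2 to 14.5. The mesenchymal markers did not fall together after siINTS11. RUNX2 changed by -1.07 in U2OS-AsiSI and -0.84 in U2OS and COL1A1 by -0.26 and -0.46, while ALPL, at 2.43 to 11.8 CPM, rose by 1.31 and 1.47. VIM rose in U2OS-AsiSI (0.21) and had a value of 0.02 in U2OS, and SPARC fell in U2OS (-0.25) and had a value of -0.02 in U2OS-AsiSI. Both sums move with the siRNA, and their part in the results below was not tested. In bulk RNA, fewer cells that make a transcript and less transcript per cell cannot be told apart.

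Per kilobase of span, ZFP36L1 and MCL1 had the most nascent reads in each of the 4 groups and IER3 the fewest. In U2OS siCtrl the levels per length were 14.6 ± 1.5 CPM per kb for ZFP36L1 (SD, n = 3), 12.3 ± 0.855 for MCL1, 8.73 ± 0.542 for IER5, 6 ± 0.272 for ZFP36L2, 5.21 ± 0.117 for BTG2 and 4.92 ± 0.294 for IER2. Lower down came ZFP36 (2.57 ± 0.199 CPM per kb), BTG1 (1.51 ± 0.138), IER5L (1.39 ± 0.162) and IER3 (1.19 ± 0.125). The ranges over libraries overlapped between ZFP36L1 and MCL1, between BTG2 and IER2, and between the neighbours among BTG1, IER5L and IER3. The other neighbours in that order were apart. In U2OS-AsiSI siINTS11 the order was MCL1 (16.2 ± 1.43 CPM per kb), ZFP36L1 (14 ± 1.1), IER5 (12.3 ± 1.44), IER2 (9.63 ± 0.908), ZFP36L2 (9.54 ± 0.738), BTG2 (9.19 ± 0.692), ZFP36 (7 ± 0.391), IER5L (4.14 ± 0.225), BTG1 (3.36 ± 0.234) and IER3 (1.61 ± 0.136). There the first 3 genes overlapped with their neighbours, as did IER2, ZFP36L2 and BTG2, while ZFP36, IER5L, BTG1 and IER3 stood apart from each other.

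The first question was how these genes responded to siINTS11. In U2OS-AsiSI 8 of the 10 rose and 0 fell, beside 35.4% of all 20441 genes tested that rose and 32.6% that fell. In U2OS 6 rose and 1 fell, beside 34.5% and 32.4% of 20687 genes. With library totals alone all 10 rose in U2OS-AsiSI, beside 51.6% of all genes that rose and 19.7% that fell, and 8 rose and 0 fell in U2OS, beside 53% and 18.4%. IER5L, ZFP36, BTG1, IER2 and ZFP36L2 rose in both lines, by 1.31-fold to 2.07-fold in U2OS-AsiSI and by 1.36-fold to 2.28-fold in U2OS. The libraries of the 2 siRNAs did not overlap in the 8 genes that rose in U2OS-AsiSI or the 6 that rose in U2OS, beside 36.4% and 38.2% of all genes that were apart and higher. The median log2 fold change of the 10 was 0.39 in U2OS-AsiSI and 0.38 in U2OS, beside 0.03 and 0.02 for all genes tested. It was 0.19 and 0.11 over protein-coding genes spanning up to 10 kb, of which 47.2% and 38% rose. Counts of members are small, and so many genes changed that a single call says little about the group.

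**Figure D1:**
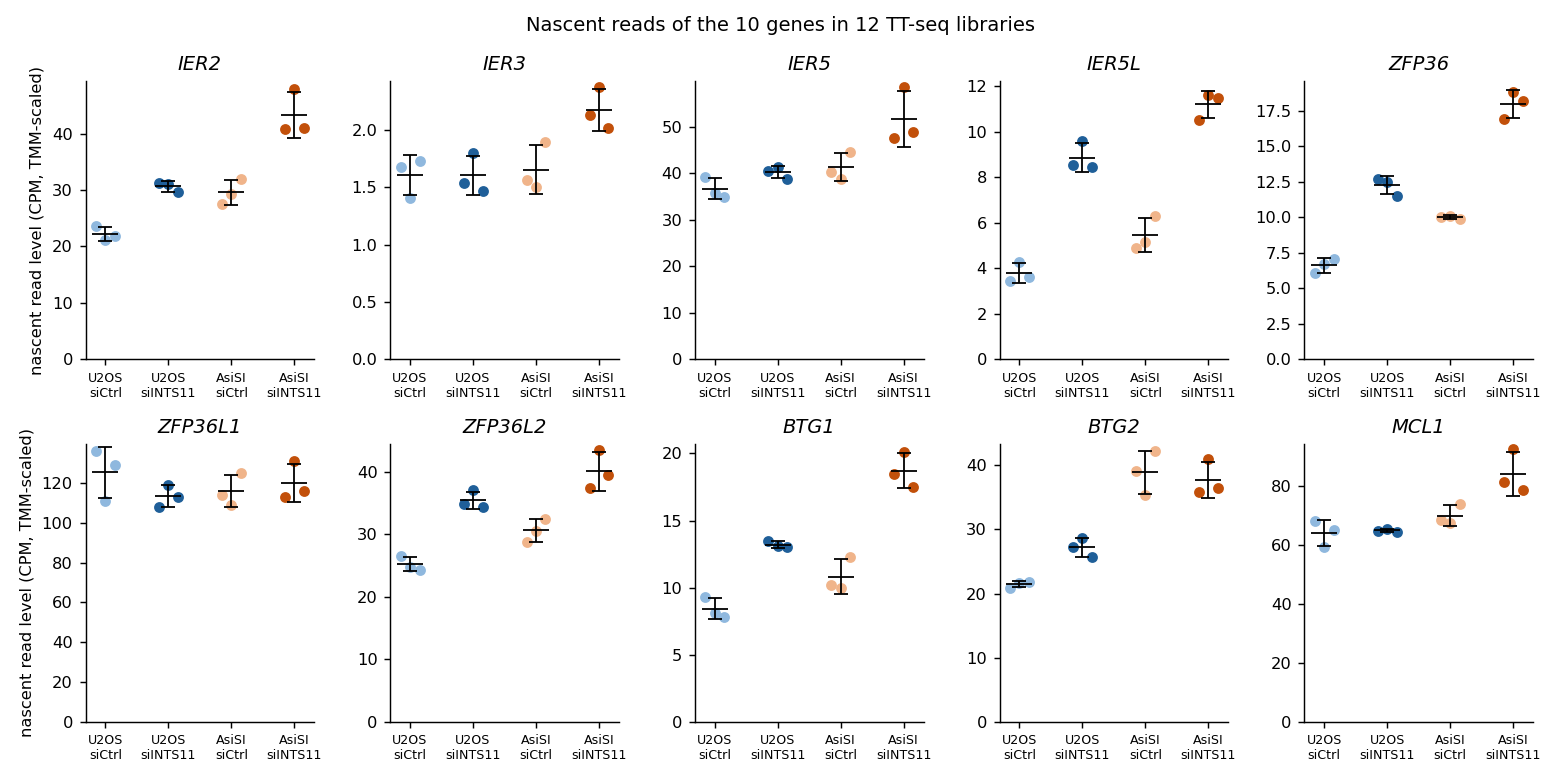
Nascent read level (vertical axis, CPM scaled by TMM, from 0) of each of the 10 genes in the 4 groups (horizontal axis). Points are libraries, horizontal marks are means and bars are SD (n = 3). The siINTS11 libraries of IER5L, ZFP36, BTG1, IER2 and ZFP36L2 lie above the siCtrl libraries of the same line, while those of ZFP36L1 overlap in both lines and those of BTG2 overlap in U2OS-AsiSI only.

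IER5L had the largest rise of the 10 in both lines, and its values carry the overlaps on the opposite strand named above. Its libraries read 3.42, 4.27 and 3.63 CPM in U2OS siCtrl and 8.55, 9.59 and 8.43 CPM in U2OS siINTS11, from 94 to 151 and 264 to 293 reads. In U2OS-AsiSI they read 4.89, 5.17 and 6.29 CPM under siCtrl and 10.5, 11.6 and 11.5 CPM under siINTS11. Every siINTS11 library lay above every siCtrl library, whichever line it came from. The change was 1.19 (SE 0.10, edgeR adjusted p 1.42e-13) in U2OS and 1.05 (SE 0.10, edgeR adjusted p 5e-11) in U2OS-AsiSI, and the difference between the lines, -0.17 (SE 0.14, edgeR adjusted p 0.57), did not pass.

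IER2 encodes a nuclear protein of the same family as IER5 and IER5L. It stood at 23.6, 21.1 and 21.8 CPM in U2OS siCtrl and at 31.3, 31.0 and 29.6 CPM in U2OS siINTS11. The U2OS-AsiSI libraries read 27.6, 29.3 and 32.0 CPM under siCtrl and 40.9, 48.0 and 41.0 CPM under siINTS11. The siRNA groups were apart in each line, and the U2OS siINTS11 and U2OS-AsiSI siCtrl libraries overlapped. IER2 rose by 0.44 (SE 0.06, edgeR adjusted p 7.43e-09) in U2OS and by 0.55 (SE 0.06, edgeR adjusted p 4.58e-09) in U2OS-AsiSI.

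IER5, which acts with a protein phosphatase on the heat shock factor HSF1, changed less. Its libraries read 39.3, 35.8 and 35.0 CPM in U2OS siCtrl against 40.6, 41.4 and 38.8 CPM in U2OS siINTS11, and the 2 groups overlapped. In U2OS-AsiSI siCtrl they read 40.4, 38.9 and 44.7 CPM, all below the 47.6, 58.7 and 49.0 CPM of U2OS-AsiSI siINTS11. IER5 rose in U2OS-AsiSI by 0.33 (SE 0.06, edgeR adjusted p 4.14e-05). In U2OS its value of 0.11 (SE 0.05, edgeR adjusted p 0.0624) missed the threshold, although it passed with library totals alone (0.31), with a mean count of at least 50 (0.15), after thinning (0.14) and without siCtrl replicate 1 (0.16). The lines differed in this response by 0.18 (SE 0.09, edgeR adjusted p 0.274), short of the threshold.

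IER3, a regulator of apoptosis that is not related in sequence to the other IER genes, had the fewest reads, 46 to 61 per library. It stood at 1.61 ± 0.169 CPM (SD, n = 3) in U2OS siCtrl, 1.6 ± 0.174 in U2OS siINTS11 and 1.65 ± 0.214 in U2OS-AsiSI siCtrl, which overlapped. The 3 libraries of U2OS-AsiSI siINTS11 (2.13, 2.38 and 2.02 CPM) were above all of these. The rise in U2OS-AsiSI was 0.40 (SE 0.16, edgeR adjusted p 0.0314), and it did not pass in 7 of 15 alternatives. Among those were DESeq2 (0.38, adjusted p 0.143) and the fits without siCtrl replicate 1 (0.37), without siCtrl replicate 2 (0.33), without siINTS11 replicate 1 (0.41) and without siINTS11 replicate 2 (0.34). In U2OS the value was -0.02 (SE 0.17, edgeR adjusted p 0.919), and the difference between the lines, 0.38 (SE 0.23, edgeR adjusted p 0.376), did not pass.

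Within the ZFP36 family the 3 paralogs did not move alike. ZFP36, also known as tristetraprolin, read 6.05, 6.7 and 7.05 CPM in U2OS siCtrl and 12.7, 12.5 and 11.5 CPM in U2OS siINTS11. Its U2OS-AsiSI libraries read 10.0, 10.1 and 9.83 CPM under siCtrl and 16.9, 18.8 and 18.2 CPM under siINTS11. The 4 groups did not overlap at any point, in the order U2OS siCtrl, U2OS-AsiSI siCtrl, U2OS siINTS11, U2OS-AsiSI siINTS11. ZFP36 rose by 0.86 (SE 0.08, edgeR adjusted p 6.84e-12) in U2OS and by 0.85 (SE 0.07, edgeR adjusted p 1.09e-11) in U2OS-AsiSI, with a difference between the lines of -0.04 (SE 0.11, edgeR adjusted p 0.882).

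ZFP36L2 read 26.5, 24.8 and 24.3 CPM in U2OS siCtrl and 34.9, 37.0 and 34.4 CPM in U2OS siINTS11. In U2OS-AsiSI it read 28.8, 30.5 and 32.5 CPM under siCtrl and 37.4, 43.5 and 39.4 CPM under siINTS11. The groups of each siRNA were apart in both lines. It rose by 0.46 (SE 0.05, edgeR adjusted p 6.42e-10) in U2OS and by 0.39 (SE 0.06, edgeR adjusted p 8.72e-07) in U2OS-AsiSI. The nearest tested gene upstream on its strand, THADA, ends 4.23 kb before it and had a mean count of 16913. THADA fell in both lines, by 0.15 on the log2 scale in U2OS and by 0.24 in U2OS-AsiSI.

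ZFP36L1, the longest and most read of the 10, showed no rise in either line with TMM scaling, although with library totals alone its value in U2OS-AsiSI became 0.24 (edgeR adjusted p 0.000179). The libraries read 136, 111 and 129 CPM in U2OS siCtrl, 108, 119 and 113 CPM in U2OS siINTS11, 114, 109 and 125 CPM in U2OS-AsiSI siCtrl and 113, 131 and 116 CPM in U2OS-AsiSI siINTS11. All 4 groups overlapped. In U2OS the change of -0.17 (SE 0.06, edgeR adjusted p 0.0221) passed, and it kept its sign and its call in 8 of 15 alternatives. It did not pass with the replicate number as a block (-0.17, edgeR adjusted p 0.0771), without siCtrl replicate 1 (-0.10), without siINTS11 replicate 1 (-0.13) or without siINTS11 replicate 3 (-0.17). Nor did it pass with a mean count of at least 50 (-0.13, edgeR adjusted p 0.0972) or in the 12-library fit (-0.13, edgeR adjusted p 0.0787). With library totals alone the value was 0.03 (edgeR adjusted p 0.638). In U2OS-AsiSI the change was 0.05 (SE 0.05, edgeR adjusted p 0.393) with TMM scaling.

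BTG1 and BTG2 are close relatives that differed here. BTG1 read 9.29, 8.14 and 7.83 CPM in U2OS siCtrl and 13.5, 13.1 and 13.0 CPM in U2OS siINTS11, and 10.2, 9.96 and 12.3 CPM in U2OS-AsiSI siCtrl and 18.5, 20.1 and 17.5 CPM in U2OS-AsiSI siINTS11. No siINTS11 library reached down to a siCtrl library. BTG1 rose by 0.62 (SE 0.08, edgeR adjusted p 6.62e-09) in U2OS and by 0.79 (SE 0.08, edgeR adjusted p 3.44e-10) in U2OS-AsiSI, and these values carry the overlap with LINC01619 named above.

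BTG2, a target of p53, was the one gene of the 10 whose response differed between the lines by the test of the difference itself. Its U2OS libraries read 20.9, 21.6 and 21.8 CPM under siCtrl and 27.3, 28.6 and 25.7 CPM under siINTS11. In U2OS-AsiSI it read 39.1, 35.4 and 42.2 CPM under siCtrl and 35.8, 41.0 and 36.5 CPM under siINTS11. The siRNA groups were apart in U2OS and overlapped in U2OS-AsiSI, where all 6 libraries lay above all 6 of U2OS. BTG2 rose by 0.31 (SE 0.06, edgeR adjusted p 7.14e-06) in U2OS and had a value of -0.04 (SE 0.06, edgeR adjusted p 0.589) in U2OS-AsiSI, or 0.15 (edgeR adjusted p 0.0332) with library totals alone. The response in U2OS-AsiSI minus that in U2OS was -0.39 (SE 0.09, edgeR adjusted p 0.0103), and 1 of the 10 genes was thus lower and 0 higher by that test, beside 3.1% and 0.762% of 21521 genes. It kept its sign in all 20 alternatives (-0.48 to -0.32) and missed the threshold in 1, without U2OS-AsiSI siINTS11 replicate 3 (-0.35, edgeR adjusted p 0.0503).

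MCL1 read 68.0, 59.2 and 64.9 CPM in U2OS siCtrl and 64.6, 65.5 and 64.5 CPM in U2OS siINTS11, which overlapped. In U2OS-AsiSI it read 68.3, 67.3 and 73.9 CPM under siCtrl and 81.3, 92.6 and 78.5 CPM under siINTS11, which were apart. It rose in U2OS-AsiSI by 0.27 (SE 0.05, edgeR adjusted p 5.86e-05). In U2OS the value was -0.01 (SE 0.05, edgeR adjusted p 0.89) and became 0.19 (edgeR adjusted p 0.000253) with library totals alone. The difference between the lines, 0.25 (SE 0.08, edgeR adjusted p 0.0602), missed the threshold and passed it in 8 of 20 alternatives. Among the 8 were the fits without U2OS siCtrl replicate 2 (0.30), without U2OS-AsiSI siCtrl replicate 3 (0.29), without U2OS-AsiSI siINTS11 replicate 1 (0.28) and without U2OS-AsiSI siINTS11 replicate 3 (0.30). In 12 it did not pass, among them the replicate block (0.25, edgeR adjusted p 0.0888). With log2 library total as a covariate it was 0.11 (edgeR adjusted p 0.388).

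**Figure D2:**
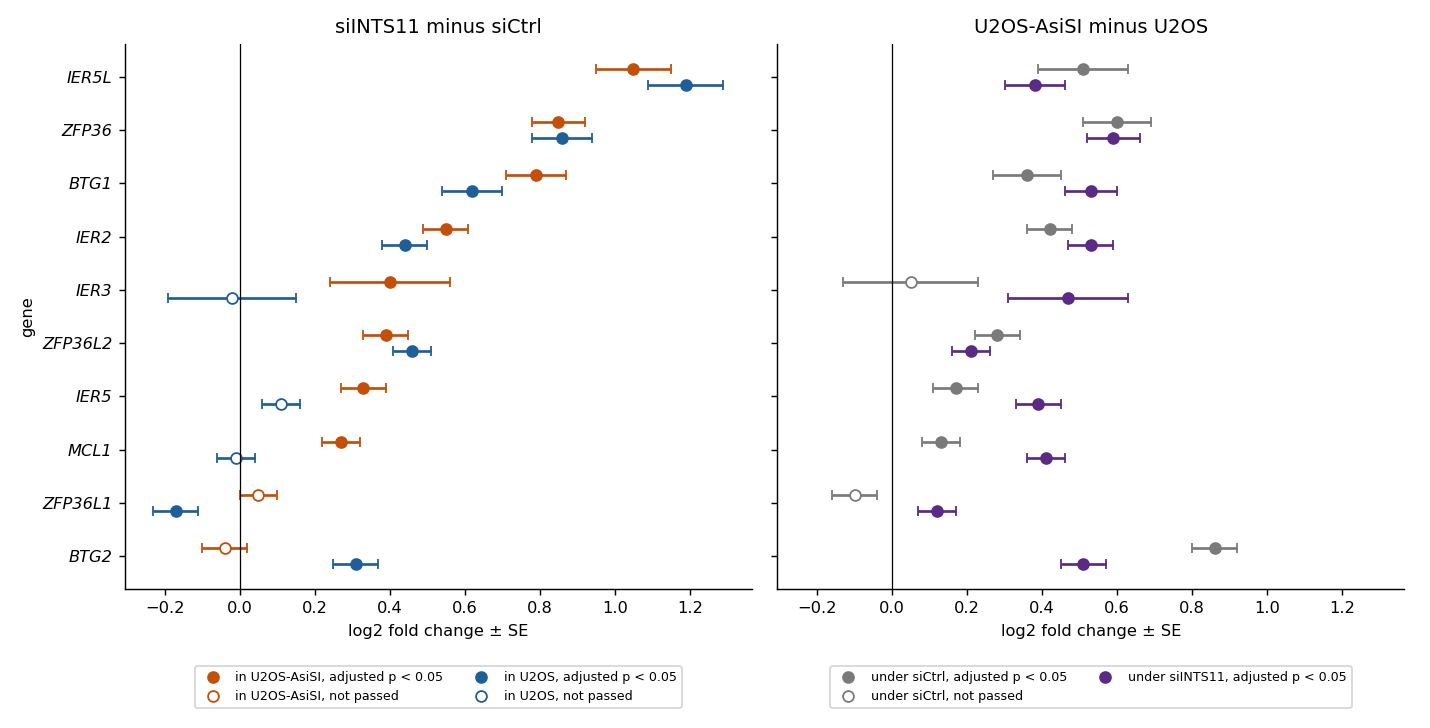
Log2 fold change (horizontal axis) of the 10 genes (vertical axis) after siINTS11 in each line (left) and between the lines under each siRNA (right). Bars are SE, and filled points passed an edgeR adjusted p of 0.05 with TMM scaling. IER5L has the largest value on the left in both lines (1.05 and 1.19), and BTG2 has the largest on the right under siCtrl (0.86). With library totals alone the left-hand values change sign for BTG2 in U2OS-AsiSI (0.15) and for ZFP36L1 (0.03), MCL1 (0.19) and IER3 (0.18) in U2OS.

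The second question was how the lines differed under the same siRNA. These comparisons share their libraries with the ones above, so the values stand side by side and are not separate evidence. Under siCtrl 8 of the 10 genes were higher in U2OS-AsiSI and 0 lower, beside 17.8% of 19935 genes that were higher and 17.2% lower. Of protein-coding genes up to 10 kb, 41.5% were higher and 1.61% lower. BTG2 differed most, 38.9 ± 3.42 CPM against 21.4 ± 0.483 (SD, n = 3), a change of 0.86 (SE 0.06, edgeR adjusted p 1.5e-12) that was apart in all libraries. ZFP36 followed with 0.60 (SE 0.09), then IER5L with 0.51 (SE 0.12), IER2 with 0.42 (SE 0.06), BTG1 with 0.36 (SE 0.09) and ZFP36L2 with 0.28 (SE 0.06), and in these 6 genes the lines were apart, beside 23% of all genes that were apart and higher. IER5 (0.17, SE 0.06, edgeR adjusted p 0.0174) and MCL1 (0.13, SE 0.05, edgeR adjusted p 0.0466) passed with overlapping libraries. IER5 did not pass in 5 of 15 alternatives. Among them were DESeq2 (0.17, adjusted p 0.0515) and the fits without U2OS siCtrl replicate 2 (0.16), without U2OS siCtrl replicate 3 (0.15) and without U2OS-AsiSI siCtrl replicate 3 (0.12). MCL1 did not pass in 7 of 15. Among them were DESeq2 (0.12, adjusted p 0.126), median-of-ratios size factors (0.12, edgeR adjusted p 0.0701) and the replicate block (0.13, edgeR adjusted p 0.0539). Others were the fits without U2OS siCtrl replicate 2 (0.08) and without U2OS-AsiSI siCtrl replicate 3 (0.09). IER3 (0.05, SE 0.18) and ZFP36L1 (-0.10, SE 0.06) did not pass, and ZFP36L1 passed as lower without U2OS siCtrl replicate 2 (-0.18, adjusted p 0.0115).

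Under siINTS11 all 10 genes were higher in U2OS-AsiSI, beside 22.2% of 20802 genes that were higher and 21.4% lower, and 54.7% that were higher of protein-coding genes up to 10 kb. ZFP36 had 0.59 (SE 0.07), IER2 and BTG1 0.53, BTG2 0.51, MCL1 0.41 (SE 0.05, edgeR adjusted p 5.25e-09), IER5 0.39, IER5L 0.38 and ZFP36L2 0.21. Libraries of the lines were apart, with U2OS-AsiSI higher, in 9 of the 10. Of all genes, 23% were apart and higher and 29.9% apart and lower. ZFP36L1 (0.12, SE 0.05, edgeR adjusted p 0.0446) overlapped and did not pass in 8 of 15 alternatives, among them the replicate block (0.12, adjusted p 0.0586) and the fits without U2OS siINTS11 replicate 1 (0.08), without U2OS siINTS11 replicate 3 (0.11) and without U2OS-AsiSI siINTS11 replicate 2 (0.05). IER3 (0.47, SE 0.16, edgeR adjusted p 0.0152) did not pass in 4 of 15. Among them were DESeq2 (0.47, adjusted p 0.0847) and the fits without U2OS siINTS11 replicate 3 (0.41) and without U2OS-AsiSI siINTS11 replicate 2 (0.41). BTG2 thus stood less far apart between the lines under siINTS11 than under siCtrl, which is the difference between lines given for it above.

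Counts of these genes did not follow the library total 1 to 1. Within groups, the slope of log2 count on log2 library total would be 1 if counts grew in proportion to depth. It was 0.29 (SE 0.09) for ZFP36L1, 0.42 (SE 0.20) for IER5, 0.44 (SE 0.08) for MCL1, 0.47 (SE 0.18) for IER2, 0.49 (SE 0.25) for BTG1, 0.61 (SE 0.19) for ZFP36L2 and 0.64 (SE 0.20) for BTG2. ZFP36 (0.99, SE 0.21) and IER5L (0.98, SE 0.39) lay near 1, and IER3, at about 50 reads, was imprecise (0.18, SE 0.23). The genes with most reads per base of span, ZFP36L1 (0.407), MCL1 (0.399) and IER5 (0.296), were among those with slopes under 0.5. Across all genes averaging 100 reads or more the median slope fell with density as well: it was 1.05 over 8921 genes with 0.01 to 0.1 reads per base, 0.80 over 1290 genes with 0.1 to 0.3 and 0.40 over 108 genes with 0.3 to 0.5.

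**Figure D3:**
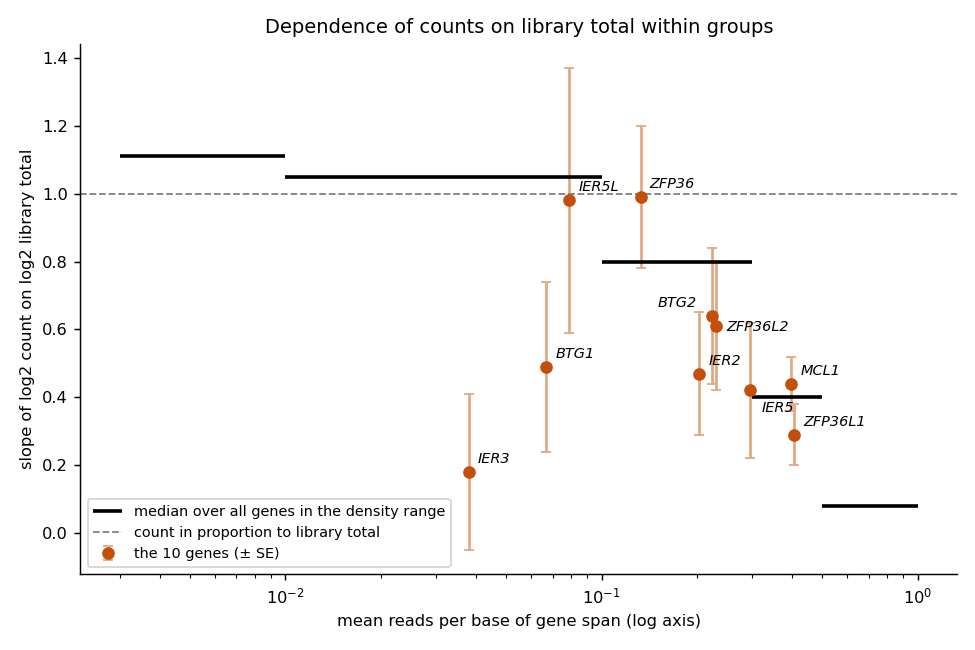
Slope of log2 count on log2 library total within the 4 groups (vertical axis) against mean reads per base of gene span (horizontal axis, log scale). Orange points are the 10 genes with their SE, black lines the median over all genes of each density range (outer ranges clipped to the axis) and the dashed line a slope of 1. ZFP36L1 (0.29) and MCL1 (0.44) lie near the median of their density range (0.40). IER5 (0.42), IER2 (0.47), ZFP36L2 (0.61) and BTG2 (0.64) lie below the median of theirs (0.80), and ZFP36 (0.99) above it. In the range with a median of 1.05, BTG1 (0.49) and IER3 (0.18) lie below it and IER5L (0.98) near it.

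The libraries with the smallest and the largest total, which are among those that gave these slopes, were also read on their own. U2OS-AsiSI siINTS11 replicate 2, with 20704611 counts, had the lowest count of its group in 10 of 10 genes and the highest CPM in 10 of 10, ZFP36 and IER5L included, beside 30.9% of the 13557 genes averaging 100 reads or more. U2OS siCtrl replicate 2, the largest with 38065726, had the highest count of its group in 10 of 10 and the lowest CPM in 4, beside 30% of those genes. Both shares are of genes by CPM, and no share over all genes was taken for counts. For IER5L the margin in U2OS-AsiSI siINTS11 was small, 11.6 CPM in replicate 2 against 11.5 in replicate 3. A fit over all 12 libraries with log2 library total as a covariate was added after the data were seen. Under it the siINTS11 changes in U2OS-AsiSI were 1.00 for IER5L, 0.82 for ZFP36, 0.62 for BTG1, 0.36 for IER2 (edgeR adjusted p 5.28e-05) and 0.25 for ZFP36L2 (edgeR adjusted p 0.00256), all higher. IER5 (0.12, edgeR adjusted p 0.124), MCL1 (0.08, edgeR adjusted p 0.204) and IER3 (0.12, edgeR adjusted p 0.659) no longer passed. ZFP36L1 (-0.19, edgeR adjusted p 0.00252) and BTG2 (-0.18, edgeR adjusted p 0.0419) passed as lower. The count in U2OS-AsiSI was then 5 higher and 2 lower, while in U2OS, where group totals were closer, it was 6 higher and 1 lower. Over all genes this fit called 26.4% higher and 27.2% lower in U2OS-AsiSI, and 36.2% and 28.9% in U2OS. The BTG2 difference between the lines was -0.48 (edgeR adjusted p 0.0029). Under siINTS11 the line comparison had 5 higher and 1 lower (ZFP36L1, -0.16, edgeR adjusted p 0.0228), with IER3, IER5, IER5L and ZFP36L2 no longer past the threshold, beside 8.03% of all genes that were higher and 14.5% lower. Under siCtrl it had 6 higher and 1 lower (ZFP36L1, -0.17), beside 17.6% and 16.8% of all genes, with IER5 and MCL1 no longer past the threshold. Total and group move together in U2OS-AsiSI, and 12 libraries give this slope little precision.

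**Figure D4:**
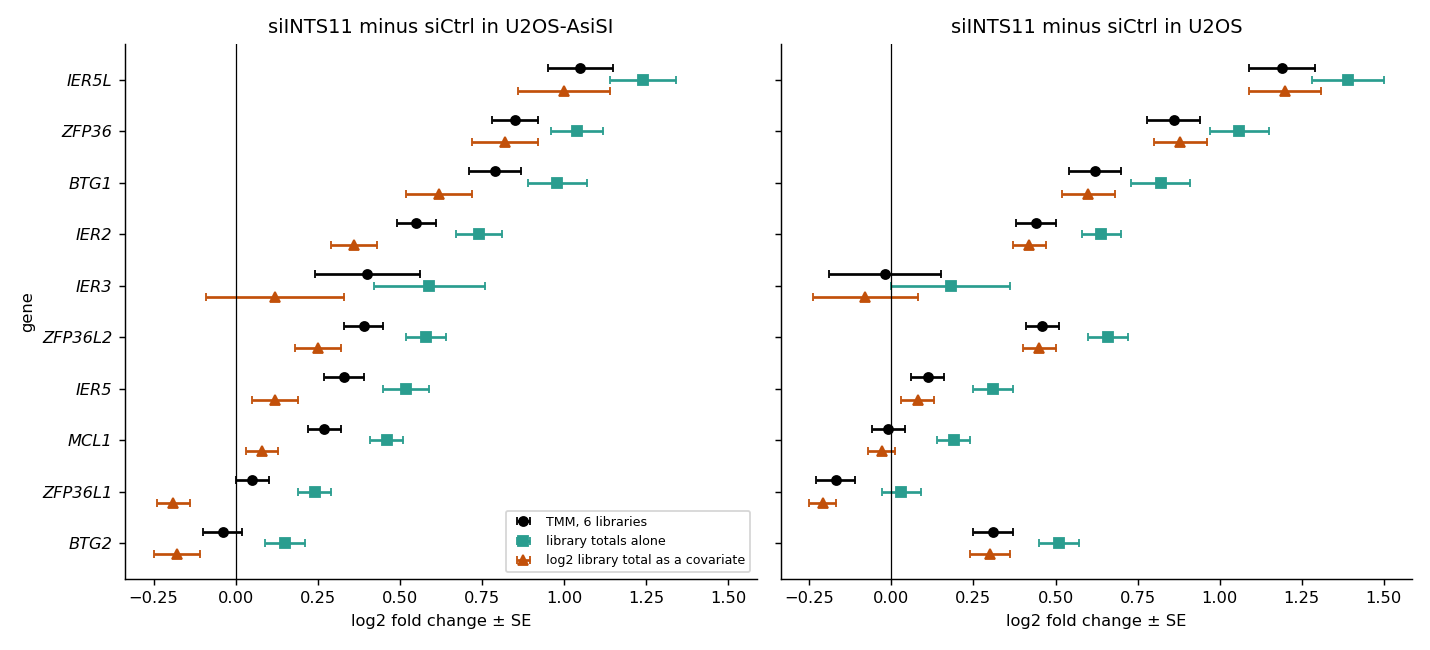
Log2 fold change after siINTS11 (horizontal axis) of the 10 genes (vertical axis) in U2OS-AsiSI (left) and U2OS (right) under TMM scaling of 6 libraries (circles), library totals alone (squares) and the 12-library fit with log2 library total as a covariate (triangles). Bars are SE. IER5L, ZFP36, BTG1, IER2 and ZFP36L2 stay above 0 in all 3 fits, and ZFP36L1 in U2OS-AsiSI runs from 0.24 (library totals) to -0.19 (covariate).

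Genes of the same pathways were read beside the 10. Their counts are to be read against the shares given above, by which 35.4% of all genes and 47.2% of short protein-coding genes rose in U2OS-AsiSI, and 34.5% and 38% in U2OS, while 32.6% and 32.4% of all genes fell. Of 41 other immediate early genes tested, 32 rose and 1 fell in U2OS-AsiSI (median log2 fold change 0.33), and 20 rose and 6 fell in U2OS (0.17). ARC, a cytoskeletal regulator of neurons, went from 21.3 ± 1.37 to 48.6 ± 4.6 CPM in U2OS-AsiSI (SD, n = 3), by 1.19 (SE 0.06), and rose by 1.36 (SE 0.06) in U2OS. DUSP5, a phosphatase of ERK, went from 25 ± 1.38 to 52.2 ± 1.36 CPM in U2OS-AsiSI, by 1.06 (SE 0.05), and rose by 0.77 (SE 0.06) in U2OS, with a difference between the lines of 0.26 (SE 0.08, edgeR adjusted p 0.046). Among the 23 MAP kinase and SRF genes upstream of immediate early transcription, 5 rose and 11 fell in U2OS-AsiSI and 4 rose and 12 fell in U2OS, with medians of -0.09 and -0.12. The kinases MAPKAPK3 (0.60 in U2OS-AsiSI, 0.50 in U2OS) and MAP2K3 (0.60 and 0.56) were among those that rose.

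In a list of 22 genes of mRNA decay, named here CCR4-NOT, PAN2-PAN3 and decapping genes, 2 rose and 11 fell in U2OS-AsiSI. In U2OS 4 rose and 13 fell (medians -0.13 and -0.15). The list also holds XRN1, PABPC1 and PABPC4. PABPC4 rose (0.39 in U2OS-AsiSI and 0.38 in U2OS), XRN1 fell (-0.35 and -0.32) and PABPC1 (0.07 and 0.06) did not pass. CNOT6L, a deadenylase subunit, fell from 139 ± 6.03 to 86.9 ± 6.76 CPM in U2OS-AsiSI (-0.67, SE 0.05) and by 0.63 on the log2 scale in U2OS. CNOT4, a ubiquitin ligase of the complex, changed by -0.50 and -0.38. Both are long genes, 106229 and 148333 bp. Of 11 AU-rich transcripts known to bind ZFP36 proteins, 8 rose and 0 fell in U2OS-AsiSI and 9 rose and 1 fell in U2OS (medians 0.33 and 0.34). CXCL8, a chemokine, went from 3.53 ± 0.271 to 13.6 ± 0.501 CPM in U2OS-AsiSI (1.96, SE 0.09) and rose by 2.27 (SE 0.14) in U2OS. CSF2, a cytokine, rose by 2.34 (SE 0.17) and 2.51 (SE 0.22) from 0.888 ± 0.186 and 0.422 ± 0.176 CPM. These are nascent reads, and the decay of the transcripts was not measured here.

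Of the 4 other BTG and TOB genes, 1 rose and 1 fell in U2OS-AsiSI, and 2 rose and 0 fell in U2OS. TOB2 rose in both lines by 0.56 (SE 0.05 in U2OS-AsiSI and 0.04 in U2OS). BTG3 fell in U2OS-AsiSI (-0.15, edgeR adjusted p 0.0104) and had a value of -0.09 (edgeR adjusted p 0.101) in U2OS. In the BCL2 family besides MCL1, 8 of 15 genes rose and 4 fell in U2OS-AsiSI, and 8 rose and 3 fell in U2OS. BCL2A1, another protective member, went from 0.441 ± 0.0665 to 2.46 ± 0.351 CPM in U2OS-AsiSI (2.46, SE 0.22) and rose by 2.21 (SE 0.34) in U2OS, and BIK, which promotes apoptosis, rose by 1.08 (SE 0.11) and 1.20 (SE 0.10). Between the lines under siCtrl, 23 of 40 other immediate early genes were higher in U2OS-AsiSI and 1 lower, and under siINTS11 37 of 41 were higher and 0 lower, beside the 41.5% and 54.7% of short protein-coding genes that were higher.

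**Figure D5:**
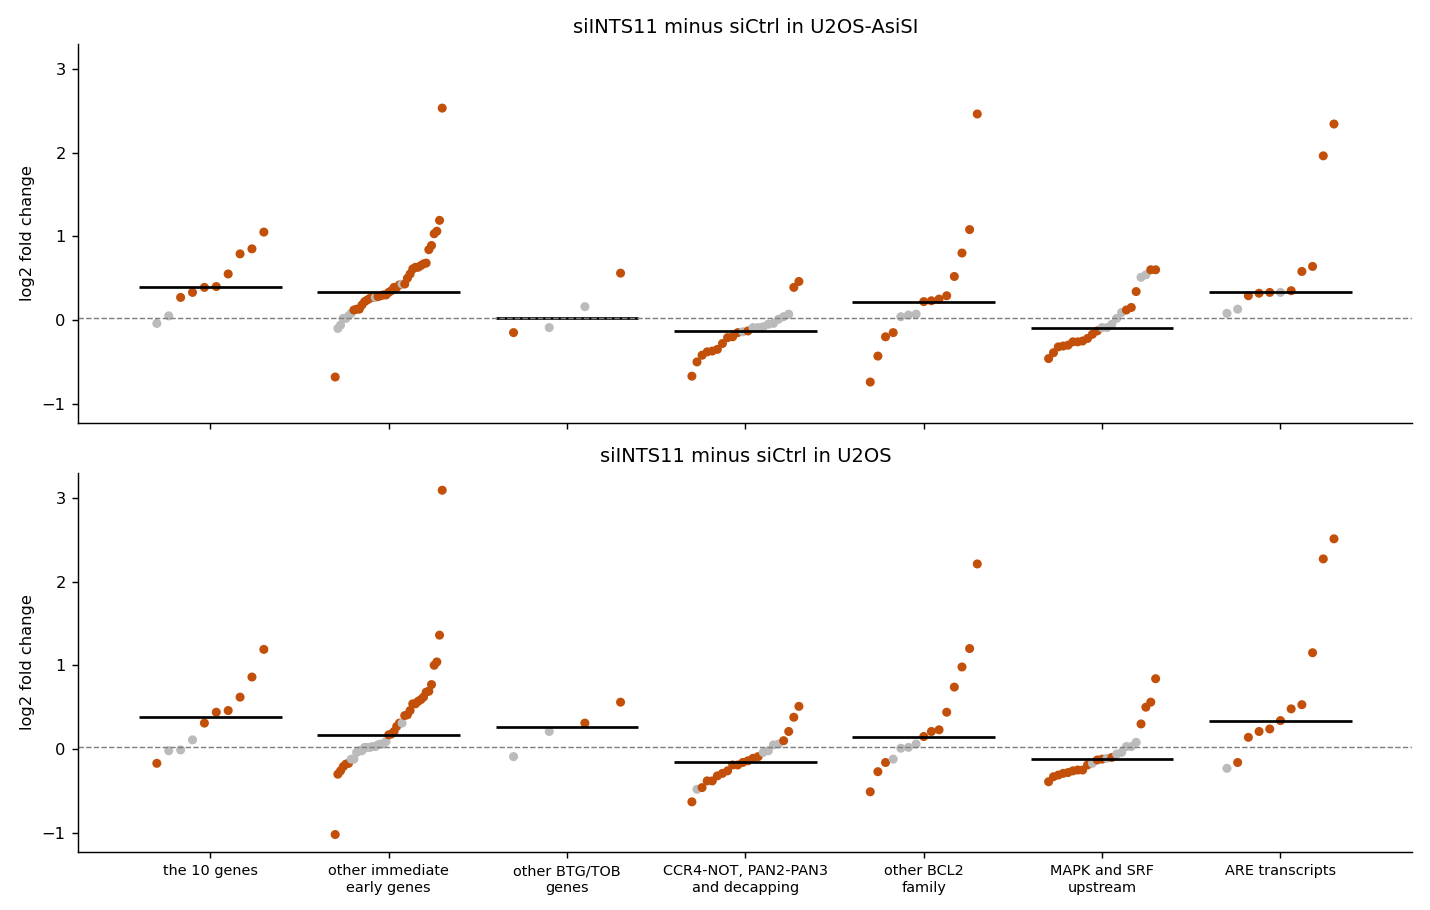
Log2 fold change after siINTS11 (vertical axis) of the 10 genes and of 6 lists of related genes (horizontal axis) in U2OS-AsiSI (top) and U2OS (bottom). Each point is a gene, sorted within its list, orange where the edgeR adjusted p was under 0.05 and grey otherwise. Black bars are list medians and the dashed line the median over all genes tested. The other immediate early genes have medians of 0.33 and 0.17, and the CCR4-NOT, PAN2-PAN3 and decapping genes -0.13 and -0.15.

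The nearest tested genes upstream on the same strand did not share a direction. Genes that were not tested in U2OS-AsiSI were passed over. MED29, a Mediator subunit 6.21 kb before ZFP36, rose by 0.36 (SE 0.07) in U2OS-AsiSI and 0.33 (SE 0.07) in U2OS. NACC1, 9.26 kb before IER2, rose by 0.11 (SE 0.05, edgeR adjusted p 0.0322) in U2OS-AsiSI and had a value of -0.02 in U2OS. ENSA, 21.1 kb before MCL1, stood at -0.02 in both lines and did not pass. BLZF2P, 71.6 kb before ZFP36L1, fell by 0.73 on the log2 scale in U2OS-AsiSI and by 0.71 in U2OS, and ADORA1, 138 kb before BTG2, fell by 0.36 and by 0.57. The upstream neighbours of IER5L (AL353803.4, 0.89 and 0.55) and BTG1 (LINC02391, 0.92 and 0.63), both non-coding and over 100 kb away, rose in both lines, and those of IER3 (HLA-B) and IER5 (MR1) passed in neither.

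Over the 12 libraries, log2 CPM of the 10 genes correlated with each other at a median Pearson's r of 0.751 over 45 pairs, from -0.235 (IER5L with ZFP36L1) to 0.973 (IER2 with BTG1). These are descriptions: the points share libraries, depth and the 4 groups. Among 13557 genes averaging 100 reads or more, the gene most like each member was SNHG7 for IER2 (r 0.998), AC010457.1 for IER3 (0.947), ACTG1 for IER5 (0.988), LNCTAM34A for IER5L (0.996) and KRT8P12 for ZFP36 (0.992). For the others it was H4C9 for ZFP36L1 (0.881), DUSP28 for ZFP36L2 (0.995), SLC30A1 for BTG1 (0.992), UQCRH for BTG2 (0.980) and RPL10A for MCL1 (0.990). IER5L had 1464 genes with an r over 0.9 and ZFP36L1 had none. UQCRH, which encodes a subunit of respiratory complex III, was higher in U2OS-AsiSI under siCtrl (0.36, SE 0.05) as BTG2 was, and had values of 0.09 (SE 0.05) in U2OS and 0.01 (SE 0.05) in U2OS-AsiSI after siINTS11, neither of which passed.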

How the data were processed

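TT-seq read counts were analysed for 12 libraries, 3 in each of 4 groups named by the sample titles. The deposited tables hold raw counts per gene (60583 genes) with chromosome, start, end, strand and length. The authors trimmed reads with Trimmomatic 0.36, aligned them with STAR 2.7 to hg38 and counted them with featureCounts, per the submitters' processing notes, which also name deepTools. Which annotation release and strand setting were used, and whether duplicates were kept, is not given in the sources used here. The sources used here name no molecular identifiers, so a read count is not taken as a number of molecules. Per the labels' protocols, labelled yeast RNA was added before capture, and scaling to it was not analysed here, so changes are relative to other genes. Of the symbols, 55454 (91.5%) matched GENCODE release 29, which gave gene types and exons.

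Counts were tested with edgeR 4.0.16 (R 4.3.3), after filterByExpr and TMM scaling, by robust glmQLFit and two-sided glmQLFTest, with Benjamini-Hochberg adjustment over all genes tested and a threshold of 0.05. Comparisons of 2 groups used their 6 libraries, and the difference between lines was the interaction over all 12. The SE was taken as the size of the log2 fold change divided by the root of its F statistic. The test code was run on simulated counts in which few genes were changed. That run does not check the scaling where as many genes change as here. Replicates differed by more than sampling noise in all 4 groups (chi-square per degree of freedom 2.108 to 3.096).

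The 10 genes and the lists were chosen with earlier results of these data known. Genes named are the 10, INTS11, the 2 genes of each list with the smallest adjusted p in U2OS-AsiSI, the gene most correlated with each of the 10 (log2 CPM, prior count 2) and their upstream neighbours, besides genes that overlap them. The markers are named as well, and so are XRN1, PABPC1 and PABPC4, which the name of their list leaves out. THADA and the other neighbours were found by position among the genes tested in U2OS-AsiSI. As alternatives, libraries were scaled by size factors (median of ratios) or by totals alone, thinned to the smallest total, left out in turn or put in 1 fit of all 12. Genes were also tested without a filter, with a mean count of 50 or more, with replicate numbers as blocks and by DESeq2 1.42.0. Figures were drawn with matplotlib 3.10.9.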

Additional observations from a re-analysis of the deposited data

Results flagged for a closer look

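The response of BTG2 to siINTS11 differed between the lines when the difference itself was tested in the fit of 12 libraries: the log2 difference was -0.39 (SE 0.09, edgeR adjusted p 0.0103). Its mean went from 21.4 to 27.2 CPM in U2OS and from 38.9 to 37.8 CPM in U2OS-AsiSI.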

How the results depend on the processing

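Of the values of single genes under the alternatives, 707 kept their sign and their side of the threshold, 43 lost the call, 18 gained one and 30 changed sign. With library totals alone, which moved the median of all genes from 0.03 to 0.22 in U2OS-AsiSI and from 0.02 to 0.22 in U2OS, BTG2 in U2OS-AsiSI turned to 0.15, and ZFP36L1, MCL1 and IER3 in U2OS turned to 0.03, 0.19 and 0.18. With log2 library total as a covariate, an alternative chosen after seeing the data, ZFP36L1 turned to -0.19 after siINTS11 in U2OS-AsiSI and to -0.16 between the lines under siINTS11, IER2 to -0.05 in the difference between lines and IER3 to -0.03 between the lines under siCtrl. In the line comparison under siINTS11 the covariate left 4679 genes called (22.5%) and 6 of the 10. The other changes of sign were in values that passed neither before nor after. After siINTS11 in U2OS-AsiSI they were BTG2 (0.01 with a mean count of at least 50, -0.10 to 0.02 without 1 library) and ZFP36L1 (-0.01 to 0.10 without 1 library). In U2OS they were IER3 (0.07 after thinning, 0.01 in the 12-library fit, -0.11 to 0.04 without 1 library) and MCL1 (0.03 with that mean count, 0.01 after thinning, 0.03 in the 12-library fit, -0.05 to 0.04 without 1 library). ZFP36 turned in the difference between lines (0.01 with no filter, 0.03 with that mean count, 0.10 after thinning, -0.07 to 0.01 without 1 library), and IER3 between the lines under siCtrl (-0.01 after thinning, -0.05 to 0.12 without 1 library). The siINTS11 calls of IER5L, ZFP36, BTG1, IER2 and ZFP36L2 held in 15 of 15 alternatives in both lines.

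For the difference between lines, 832 of 21521 genes were called in the report (3.87%). DESeq2 called 423 of the 11924 genes to which it gave an adjusted p (3.55%). The number was 447 with median-of-ratios size factors (2.08%), 531 after thinning (2.61%) and 332 with the covariate (1.54%). In the 12 fits without 1 library it was 286 to 946 (1.31% to 4.31%). Of the 10 genes, 2 were called for that difference with library totals alone, 2 with a mean count of at least 50, 2 with DESeq2, 3 with no filter and 1 to 3 without 1 library, against 1 in the report. With the replicate number as a block, 531 genes (2.47%) and 1 of the 10 were called for the difference between lines. In the other 4 comparisons, in the order of the report, 8, 6, 7 and 9 of the 10 genes were called. Beside these stood 69.3%, 66.2%, 32.2% and 42.1% of all genes. The numbers share no stated source, and deviations of same-numbered libraries correlated at -0.034 to 0.374 in U2OS-AsiSI and -0.142 to 0.155 in U2OS, so they were not taken as pairs. Depth limits IER3 most, at 46 to 61 reads per library.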
